A study of Mus musculus with 12 samples.

Results

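Genes that build the ribosome, or belong to the polymerases and the nuclease that work beside it, were followed in a mouse myeloid line as it matured with and without knockdown of Hnrnpa0. They were chosen by name, as all non-control probes whose gene name in the scanner output begins with Nop, Nol, Utp, Rrp or Exosc and a digit, begins with Polr1 or Polr3, or is Bop1, Pes1, Fbl, Ncl, Dkc1, Imp3 or Imp4. The rule found 91 of the 41174 probes, for 47 genes. Names in the scanner output are those of an old array design, so the rule reached a single subunit specific to RNA polymerase I (Polr1e) and no Rrp gene or Dkc1, but 10 subunits of RNA polymerase III and 10 of the RNA exosome. The set is therefore described below as polymerase III, small subunit, large subunit, box C/D and exosome genes, not as a polymerase I set. A further 23 genes of the same families, which the scanner output lists under older names, are given separately.

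Ribosome production starts in the nucleolus, where RNA polymerase I transcribes the long ribosomal RNA precursor. RNA polymerase III makes the smallest ribosomal RNA and the transfer RNAs. Box C/D and box H/ACA ribonucleoproteins modify the precursor, the small subunit processome (Utp, Imp and several Nol proteins) and the large subunit factors (Nop2, Bop1, Pes1 and others) fold and cleave it, and the exosome trims its ends. Growing progenitors usually make many ribosomes, and the transcription factor Myc is known for raising the genes concerned.

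PUER cells, a line from PU.1-deficient mouse myeloid progenitors, carry PU.1 fused to a part of the estrogen receptor and grow in IL-3. The drug 4-hydroxytamoxifen (4-OHT) releases the fusion protein and the cells mature. All 12 arrays came from PUER cells infected with a retrovirus and sorted for its GFP. The retrovirus was either the control or one that expresses a short hairpin RNA (shRNA) targeting Hnrnpa0, and cells were taken before the drug or after 24 h in 2 nM 4-OHT, which gives 4 groups of 3 arrays: control before, control 4-OHT, shRNA before and shRNA 4-OHT. The series' design describes separate clones for each vector in parallel experiments (replicates A, B and C). No array is labelled as vehicle after 24 h, so 4-OHT and time in culture cannot be told apart.

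Levels are log2 intensity relative to each array's 75th percentile, and differences are between group means on that log2 scale. A gene is said to have risen or fallen only where the adjusted p was under 0.05 (limma, Benjamini-Hochberg over the 15062 genes tested). Of the 47 genes, 45 could be tested. Nol4 was not well above background on any array, and the bright probe of Exosc6 kept too few values after outlier spots were set aside. With 3 arrays in a group, the number of arrays sets how precise a value can be.

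Hnrnpa0 itself, the target of the hairpin, stood at 3.11, 3.06 and 2.98 on the control arrays before 4-OHT and at 1.93, 1.57 and 1.00 on the shRNA arrays, and after 4-OHT at 2.60, 2.63 and 2.73 against 0.56, 0.65 and 0.46. The vector groups did not overlap at either time. Between 50.3% and 55.7% of the spots of an array were well above background. Control before A, B and C were on slide 1 with control 4-OHT A, control 4-OHT B and C on slide 2 with shRNA before A and B, and shRNA before C on slide 3 with shRNA 4-OHT A, B and C, so the vectors shared no slide within a treatment. Within each vector slide also went in part with treatment, so slide and 4-OHT cannot be fully told apart. Control 4-OHT A had 1165 outlier spots, against 357 to 814 on the other 11 arrays. Of the macrophage markers tested, 7 of 7 rose with 4-OHT in both vectors, and of the proliferation markers 2 of 14 fell in each vector; 0 of 3 megakaryocyte markers were well above background on all arrays of any group. The myeloid label of the line is met by its markers: 6 of 7 progenitor markers were well above background on all arrays of every group. In these bulk samples fewer cells of a type and less RNA per cell cannot be told apart.

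With 4-OHT, most of the ribosome-building genes moved little. In control cells 9 of 45 passed the test (20.0%), 2 higher and 7 lower, where 40.5% of all genes tested passed (17.5% higher, 23.0% lower). In shRNA cells 8 of 45 passed (17.8%), 3 higher and 5 lower, against 38.3% of all genes (16.5% higher, 21.8% lower). The median difference of the 45 genes was -0.099 in control cells, beside -0.068 over all genes, and -0.084 in shRNA cells, beside -0.076. No gene of the set reached a log2 difference of 1 in either vector, a size that 10.9% and 10.1% of all genes reached. Differences of at least 0.50 in size were found in 5 of the 45 genes in control cells, against 27.4% of all genes, and in 0 in shRNA cells, against 25.9%. Polymerase III subunits held 4 of the 9 genes that passed in control cells and 5 of the 8 in shRNA cells (of 10 subunits, 40.0% in control cells beside 40.5% of all genes). The small subunit processome held 3 and 2 (of 12 genes), the exosome 1 and 0, and Nol3 passed in both vectors. None of the 6 large subunit genes passed in either vector. At an unadjusted p under 0.05 (limma) 0 and 1 of the 6 did, where 47.8% and 47.3% of all genes did.

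Single arrays moved both counts. Without control 4-OHT A 17 genes passed in control cells (1 higher, 16 lower) and 14 in shRNA cells (4 higher, 10 lower), with 42.6% and 42.7% of all genes passing; the 10 genes gained in control cells included Exosc1, Exosc4, Exosc5, Exosc7 and Exosc9. Background correction by normexp ended the control calls of Imp4, Utp14b, Polr3k and Exosc8 and the shRNA calls of Imp3, Polr3k, Polr3d, Utp6 and Nol3. In shRNA cells the count was 5 without shRNA before A, 5 without shRNA before B, 5 without shRNA 4-OHT A and 4 without shRNA 4-OHT B. With slide as a fixed term the median of the set in control cells turned to 0.031, and within slide 1 alone it was 0.043. Control 4-OHT A was the only array after 4-OHT on slide 1, so both values rest on it and are not separate checks. Marker genes of maturity moved in the same comparison: in control cells 4 of 6 progenitor markers fell and 7 of 7 macrophage markers rose. Of those 7, the probes of Adgre1, Csf1r, Itgax and Msr1 were well above background on 6 of 12 arrays and that of Cd14 was saturated on 5, so their sizes are not given, and their part in these counts was not tested.

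**Figure D1:**
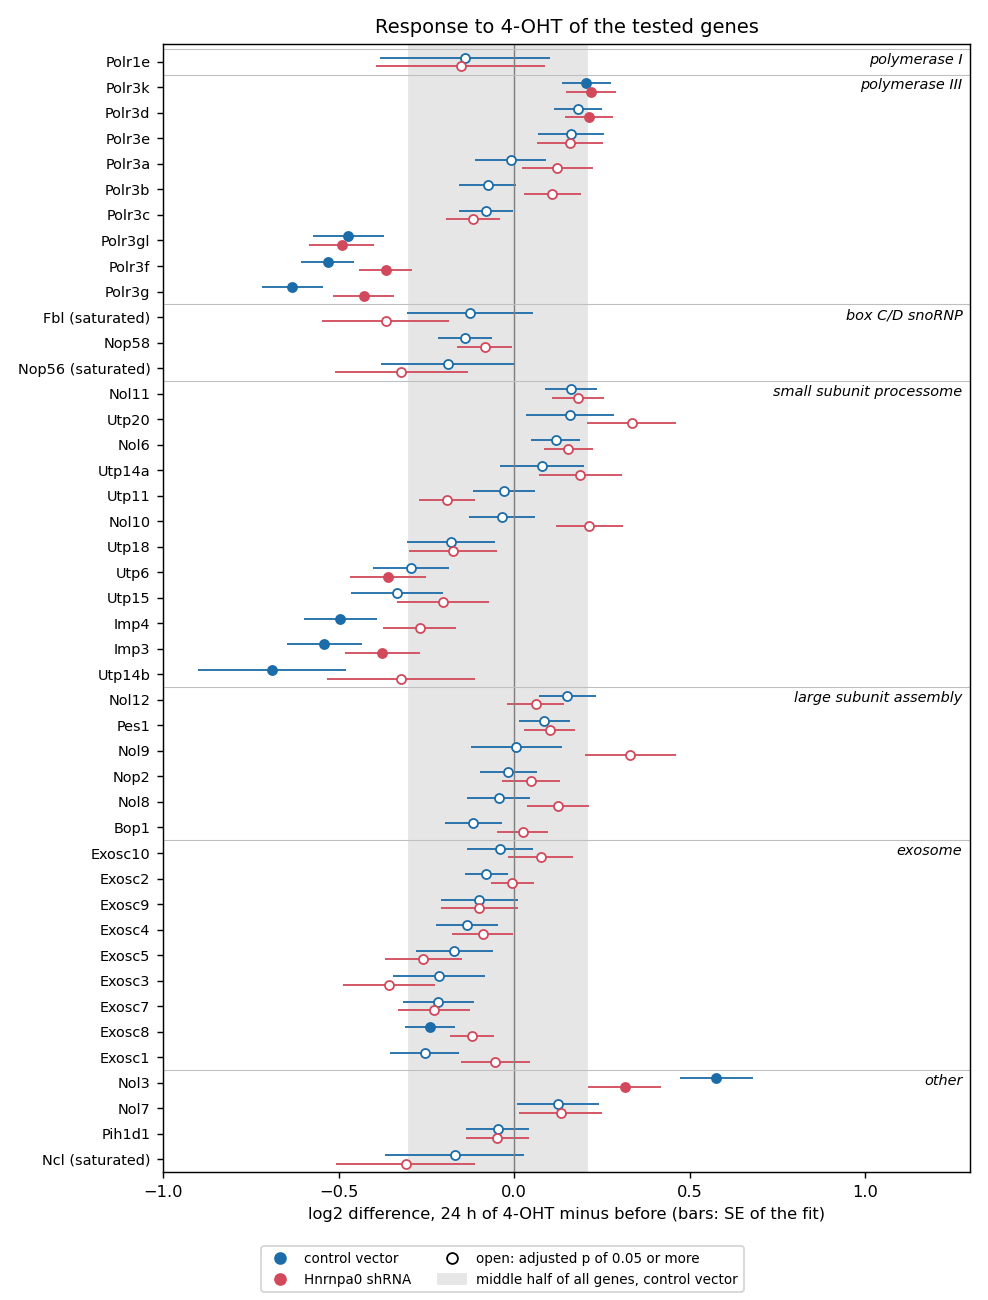
Log2 difference between 24 h of 4-OHT and before (horizontal axis) for all but 1 of the 45 tested genes, grouped by role, in control (blue) and shRNA (red) cells; bars are the SE of the fit, filled points have an adjusted p under 0.05, and the grey band runs from the 25th to the 75th percentile of all genes in control cells. Most points lie inside the band, and Polr3g, Polr3f, Polr3gl, Imp3 and Nol3 stand outside it in both vectors.

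Polymerase III subunits moved in both directions. Polr3g and Polr3gl encode alternative forms of one subunit of the enzyme, and Polr3f encodes a subunit of the same subcomplex, which takes part in starting transcription. All 3 fell in both vectors. Polr3g stood at 1.40, 1.38 and 1.31 in control cells before 4-OHT and at 0.85, 0.72 and 0.61 after it, and at 1.27, 1.44 and 1.55 and 1.07, 0.94 and 0.96 in shRNA cells. Every array after 4-OHT was below every array before it, within and across vectors. The difference was -0.63 (SE 0.087, adjusted p = 0.000189) in control cells and -0.43 (SE 0.087, adjusted p = 0.00283) in shRNA cells, and it passed in 27 of 27 and 27 of 27 alternative analyses.

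Polr3gl read 2.50 and 2.71 (replicate B set aside as an outlier spot) in control cells before 4-OHT, and 2.06 and 2.21 (replicate A set aside as an outlier spot) after it. In shRNA cells it read 2.40 and 2.31 (replicate C set aside as an outlier spot) before and 1.91, 1.83 and 1.85 after. The groups before and after 4-OHT did not overlap in either vector, though 3 groups held 2 values. The difference was -0.47 (SE 0.10, adjusted p = 0.00774) and -0.49 (SE 0.093, adjusted p = 0.00454); the control call was lost without control before C and control 4-OHT B (-0.40 to -0.37, adjusted p up to 0.0534). Polr3g and Polr3gl went the same way in both vectors.

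For Polr3f the control arrays read -0.64, -0.66 and -0.62 before 4-OHT and -1.24, -1.02 and -1.26 after it, and the shRNA arrays -0.76, -0.77 and -0.69 and -1.04, -1.07 and -1.19. All 6 arrays after 4-OHT lay below all 6 before it. The difference was -0.53 (SE 0.076, adjusted p = 0.000237) in control cells and -0.37 (SE 0.076, adjusted p = 0.00312) in shRNA cells, where averaging the gene's probes gave -0.14 and ended the call. Within slide 3, where shRNA before C was the only array before 4-OHT, the difference in shRNA cells was -0.42.

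Polr3k, which encodes a small subunit involved in ending transcription, rose instead. It stood at -0.003, 0.15 and 0.16 before and 0.37, 0.33 and 0.23 after 4-OHT in control cells, and at 0.11, 0.15 and 0.23 and 0.43, 0.40 and 0.32 in shRNA cells, with no overlap in either vector. The rise was 0.21 (SE 0.07, adjusted p = 0.0391) and 0.22 (SE 0.07, adjusted p = 0.0313), close to the threshold: it passed in 9 of 27 and 15 of 27 alternatives. In control cells it was lost without control before A, B and C, control 4-OHT A and B, shRNA before B and shRNA 4-OHT A and B (0.15 to 0.24, adjusted p up to 0.143), and in shRNA cells without shRNA before A and B and shRNA 4-OHT A and B (0.19 to 0.21, adjusted p up to 0.0997). Polr3d, whose product pairs with that of Polr3e in the enzyme, rose in shRNA cells by 0.21 (SE 0.068, adjusted p = 0.0301), from -0.94, -0.88 and -0.83 to -0.71, -0.72 and -0.58. In control cells Polr3d read -0.93, -0.87 and -0.76 before and -0.64, -0.70 and -0.69 after (0.18, adjusted p = 0.0545), and the shRNA call was lost without shRNA before A and B and shRNA 4-OHT A and C (0.17 to 0.23, adjusted p up to 0.0967).

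The largest catalytic subunit, Polr3a, differed by -0.0096 in control cells (95% interval -0.23 to 0.22) and 0.12 in shRNA cells (-0.10 to 0.35). Its catalytic partner Polr3b gave -0.075 (-0.26 to 0.11) and 0.11 (-0.073 to 0.29). Neither passed the test. Polr3c and Polr3e did not pass either, with differences between -0.12 and 0.16. The polymerase I subunit Polr1e gave -0.14 and -0.15 with an SE of 0.24.

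Among the 12 small subunit processome genes of the rule, those that passed fell; processome genes under older names that rose are given with those names. Imp3 and Imp4, whose proteins bind the box C/D RNA that guides the first cleavages of the precursor, moved together in control cells. Imp3 read 3.62, 3.67 and 3.67 before and 3.37, 2.93 and 3.04 after 4-OHT in control cells, and 3.57, 3.58 and 3.77 and 3.24, 3.22 and 3.33 in shRNA cells. Before and after did not overlap in either vector, and control 4-OHT A lay nearest to the arrays before the drug. The difference was -0.54 (SE 0.11, adjusted p = 0.00216) and -0.38 (SE 0.11, adjusted p = 0.0182). In shRNA cells it was lost without shRNA before C and shRNA 4-OHT A and B (-0.36 to -0.31, adjusted p up to 0.0603). Within slide 1 the control value, which rests on control 4-OHT A alone after the drug, was -0.28.

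Imp4 read -1.92, -2.18 and -2.08 before and -2.72, -2.46 and -2.49 after 4-OHT in control cells, a difference of -0.49 (SE 0.10, adjusted p = 0.00309) without overlap. With normexp background correction it was -0.25 (adjusted p = 0.154) and did not pass. Among its shRNA arrays, -1.86, -2.06 and -1.86 before and -2.27, -2.24 and -2.06 after were also apart, but -0.27 (SE 0.10, adjusted p = 0.0641) did not pass. The difference between the 2 responses of Imp4 was 0.23 (adjusted p = 0.957). Utp6, a processome component, fell in shRNA cells from -1.58, -1.63 and -1.58 to -1.81, -1.92 and -2.15, with no overlap, and fell by 0.36 (SE 0.11, adjusted p = 0.0234). In control cells Utp6 went from -1.60, -1.54 and -1.44 to -1.60, -1.90 and -1.96, where control 4-OHT A lay at the edge of the arrays before the drug (-0.29, adjusted p = 0.052). The shRNA call was lost without shRNA before A, B and C and shRNA 4-OHT B and C (-0.38 to -0.27, adjusted p up to 0.0776).

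Utp14b, a retrogene copy of Utp14a, had the largest difference of the 45 genes in control cells, -0.69 (SE 0.21, adjusted p = 0.0237). Its spots were among the dimmest tested, at -4.17, -3.39 and -4.01 before and -4.64, -4.50 and -4.51 after 4-OHT in control cells and at -4.14, -3.60 and -3.84 and -4.33, -4.35 and -3.86 in shRNA cells, where the groups overlapped. Whether its probe also binds Utp14a transcripts was not tested. The call was lost without control before B and control 4-OHT A, B and C (-0.72 to -0.46, adjusted p up to 0.0777), and with slide as a fixed term it was -0.78 (adjusted p = 0.107). With normexp background correction the difference was -0.06 (adjusted p = 0.853). The other 8 processome genes (Utp11, Utp14a, Utp15, Utp18, Utp20, Nol6, Nol10 and Nol11) passed in neither vector, and ranged from -0.33 for Utp15 to 0.16 for Nol11 in control cells.

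**Figure D2:**
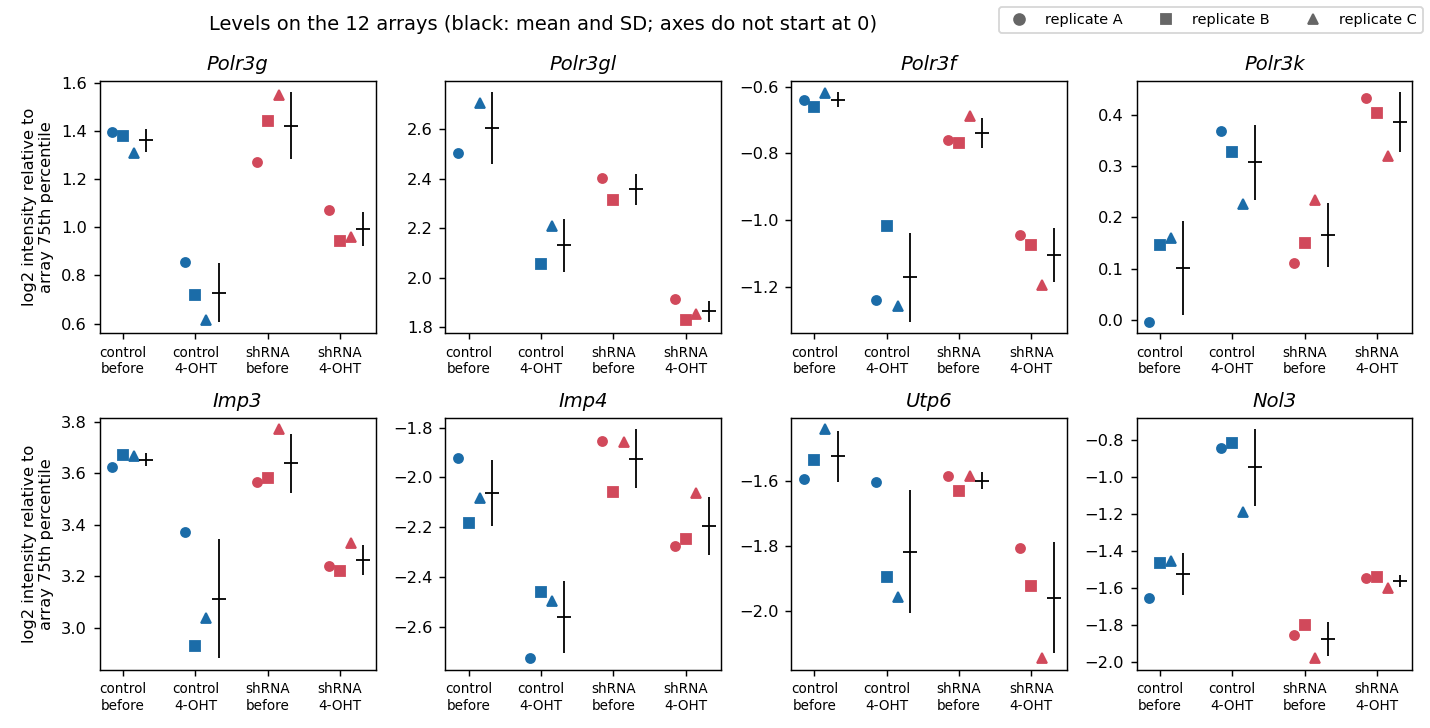
Level on each of the 12 arrays (vertical axes, log2 intensity relative to the array's 75th percentile, each gene on its own scale) for 8 genes in the 4 groups; symbols mark replicates A, B and C, and black marks give mean and SD. Polr3g, Polr3gl, Polr3f and Imp3 lay lower and Polr3k and Nol3 higher on every 4-OHT array than on the arrays of the same vector before it.

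The start regions of 5 genes that fell were read to see what the falling genes share beside their function, with Nop2, which did not pass, set beside them. The sequences run 5′ to 3′ over the 250 bases before the annotated start, from RefSeq on mouse build GRCm38.p6, and capitals mark CACGTG, the motif (the same on both strands) that Myc and its partners bind.
Polr3g (chr13:81711014-81711263, minus strand): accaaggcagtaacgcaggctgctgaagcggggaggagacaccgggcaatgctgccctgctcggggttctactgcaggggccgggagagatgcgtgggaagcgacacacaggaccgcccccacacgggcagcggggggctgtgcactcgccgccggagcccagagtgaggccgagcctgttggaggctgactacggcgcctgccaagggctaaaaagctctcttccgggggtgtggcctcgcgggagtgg
Polr3gl (chr3:96594182-96594431, minus strand): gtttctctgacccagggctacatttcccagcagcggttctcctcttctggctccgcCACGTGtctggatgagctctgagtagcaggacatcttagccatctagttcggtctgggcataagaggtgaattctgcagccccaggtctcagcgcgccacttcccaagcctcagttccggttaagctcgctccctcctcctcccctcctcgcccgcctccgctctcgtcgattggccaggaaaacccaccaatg
Polr3f (chr2:144527495-144527744, plus strand): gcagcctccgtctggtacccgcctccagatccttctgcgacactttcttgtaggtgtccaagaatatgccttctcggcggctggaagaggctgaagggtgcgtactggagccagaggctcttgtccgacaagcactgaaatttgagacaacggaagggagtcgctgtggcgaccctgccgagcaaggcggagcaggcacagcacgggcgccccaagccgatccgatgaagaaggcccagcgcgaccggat
Imp3 (chr9:56937250-56937499, plus strand): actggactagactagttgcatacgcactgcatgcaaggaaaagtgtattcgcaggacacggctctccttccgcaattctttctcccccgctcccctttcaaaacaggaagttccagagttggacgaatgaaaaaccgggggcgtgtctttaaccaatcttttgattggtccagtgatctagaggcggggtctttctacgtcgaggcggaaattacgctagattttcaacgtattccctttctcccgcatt
Imp4 (chr1:34439579-34439828, plus strand): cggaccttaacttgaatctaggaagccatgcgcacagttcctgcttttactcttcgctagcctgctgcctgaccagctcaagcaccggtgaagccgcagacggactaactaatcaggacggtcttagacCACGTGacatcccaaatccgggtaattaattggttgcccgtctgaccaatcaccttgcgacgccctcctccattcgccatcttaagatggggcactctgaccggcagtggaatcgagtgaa
Nop2 (chr6:125131633-125131882, plus strand): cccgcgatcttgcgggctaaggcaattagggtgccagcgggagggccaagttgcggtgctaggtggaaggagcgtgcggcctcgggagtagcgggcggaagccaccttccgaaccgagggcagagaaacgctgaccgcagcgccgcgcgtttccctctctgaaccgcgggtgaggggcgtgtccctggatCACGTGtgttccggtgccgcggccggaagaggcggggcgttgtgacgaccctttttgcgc
CACGTG occurred in the windows of Polr3gl, Imp4 and Nop2 and not in those of Polr3g, Polr3f and Imp3. Its first base lay 194, 121 and 60 bases before the start in those 3 genes. Start regions were listed for 34 of the 45 tested genes, and 8 of the 34 (23.5%) held CACGTG, against 6.86% of the 27025 genes in the table. Those 27025 include genes that were not tested on these arrays, and the share among tested genes was not counted for any motif. The 8 were Exosc5, Imp4, Nol11, Nop2, Polr3c, Polr3gl, Utp14b and Utp18. In control cells with 4-OHT 3 of these 8 fell and 0 rose, where 23.0% of all genes fell and 17.5% rose. Of the 26 without the motif 4 fell and 1 rose. Median differences with and without it were -0.17 and -0.077. The 3 that fell were Imp4, Utp14b and Polr3gl. The calls of Imp4 and Utp14b were lost with normexp background correction, and that of Polr3gl rests on 2 values a group. A link between motif and response was not tested. In shRNA cells 1 of the 8 fell and 0 rose, where 21.8% of all genes fell and 16.5% rose. Of the 26 without the motif 3 fell and 1 rose there, with medians of -0.22 with it and -0.027 without it. The longer motif CCGGAAGT, bound by Ets proteins and searched on both strands, was in the windows of 2 of the 34 genes (5.88%, against 3.23% of all). GAGGAA, the core that PU.1 binds, searched on both strands, was in 7 (20.6%, against 25.9%). None of the 3 motifs contains another. Polr3g, Polr3f and Imp3 held none of the 3 in this window.

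Box C/D genes were so bright that most could not be followed. Fbl, the methyltransferase of these particles, and Nop56, one of their scaffold proteins, were saturated on all 12 arrays with their main probes, as was nucleolin (Ncl), an abundant nucleolar protein that binds the precursor. A saturated spot gives no measure of a difference. Fbl read 5.55, 5.00 and 5.24 and 5.35, 5.14 and 4.92 in control cells before and after 4-OHT, and 4.97, 5.26 and 5.23 and 4.67, 4.58 and 5.12 in shRNA cells, values that are lower bounds scaled by each array's percentile. Nop58, the other scaffold protein, was not saturated. It stood at 4.27, 4.29 and 4.36 before and 4.34, 4.12 and 4.03 after in control cells, which overlapped, and at 4.22, 4.20 and 4.27 and 4.15, 4.13 and 4.14 in shRNA cells. Neither difference passed: -0.14 (95% interval -0.31 to 0.033) and -0.084 (-0.26 to 0.089).

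Ncl had 2 probes that were not saturated. One (A_52_P620748) read -0.27, -0.35 and -0.23 before and -0.83, -0.78 and -0.69 after 4-OHT in control cells, and -0.31, -0.21 and -0.12 and -0.63, -0.86 and -0.70 in shRNA cells. When the 22364 probes above background were tested one by one, of which 39.7% and 37.2% passed in control and shRNA cells, this probe fell, with differences of -0.48 (SE 0.082, adjusted p = 0.000853) and -0.51 (SE 0.082, adjusted p = 0.000623) and no overlap. The other (A_52_P429650) gave -0.21 and -0.028 and did not pass. Nop56 also had an unsaturated probe, designed on a cDNA clone and not on the RefSeq transcript, which rose in shRNA cells by 0.86 (SE 0.17, adjusted p = 0.00274) and gave 0.29 (adjusted p = 0.216) in control cells.

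None of the 6 large subunit genes of the rule passed. Large subunit genes under older names that fell are given with those names. Nop2, a methyltransferase of the large ribosomal RNA, stood at 4.10, 3.94 and 4.03 and 4.16, 3.99 and 3.88 in control cells before and after 4-OHT and at 4.05, 4.01 and 4.12 and 4.09, 4.05 and 4.19 in shRNA cells. The 4 groups overlapped, and the 95% intervals of its differences were -0.20 to 0.17 and -0.13 to 0.23. Bop1 and Pes1, partners in the complex that processes the large subunit RNA, had intervals of like width. Bop1 gave -0.12 (-0.30 to 0.065) and 0.024 (-0.14 to 0.19), and Pes1 0.086 (-0.074 to 0.25) and 0.10 (-0.059 to 0.26). Pes1 read 3.75, 3.75 and 3.86 and 4.01, 3.83 and 3.77 in control cells, and 3.80, 3.81 and 3.85 and 3.89, 3.90 and 3.97 in shRNA cells, where alone the groups did not overlap. Nol8, Nol9 and Nol12 passed in neither vector; Nol9 gave 0.0058 in control and 0.33 (adjusted p = 0.0675) in shRNA cells.

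Exosome genes had small differences: in control cells 9 of 9 were below 0, and 1 of the 9 passed (11.1%, beside 40.5% of all genes). Their median was -0.17, beside -0.068 over all genes, and the share of all genes below 0 was not counted. In shRNA cells exosome genes lay on both sides of 0, from -0.36 to 0.076. Their median there was -0.099, beside -0.076 over all genes, and 0 of the 9 passed. Exosc8, a ring subunit, fell from 4.33, 4.19 and 4.18 to 4.04 and 3.94 (replicate A set aside as an outlier spot) in control cells, without overlap, by 0.24 (SE 0.071, adjusted p = 0.0223); in shRNA cells it read 4.11, 4.12 and 4.10 and 4.02, 4.00 and 3.96 (-0.12, adjusted p = 0.166). The control call was lost without control before A and control 4-OHT C (-0.19, adjusted p up to 0.134), and control 4-OHT A had no value. Exosc10, the nuclear catalytic subunit, stood at 0.90, 0.77 and 0.82 and 0.86, 0.79 and 0.72 in control cells and 0.86, 0.77 and 1.13 and 1.02, 0.92 and 1.06 in shRNA cells, with 95% intervals of -0.25 to 0.17 and -0.13 to 0.28 for the differences. Without control 4-OHT A, 5 further exosome genes passed in control cells, as given above.

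Nol3 had the largest rise. Despite its name it is best known as a repressor of cell death. In control cells it stood at -1.66, -1.47 and -1.45 before and -0.85, -0.81 and -1.19 after 4-OHT, and in shRNA cells at -1.85, -1.80 and -1.98 and -1.55, -1.54 and -1.60. Neither vector's groups overlapped, and every shRNA array after 4-OHT lay below every control array after it. The rise was 0.58 (SE 0.10, adjusted p = 0.00117) in control cells, which passed in 27 of 27 alternatives, and 0.32 (SE 0.10, adjusted p = 0.0349) in shRNA cells, which passed in 14 of 27 and was lost without shRNA before A, B and C and shRNA 4-OHT A, B and C (0.26 to 0.35, adjusted p up to 0.101). The difference between the responses was -0.26 (adjusted p = 0.957). Nol7 and Pih1d1, listed as Nop17 in the scanner output and a partner in assembling box C/D particles, did not pass.

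Probes of the same gene did not always move together. Among the 91 probes, 73 could be tested one by one, of which 17 passed in control cells (39.7% of all probes passed) and 16 in shRNA cells (37.2%), and 22 genes had several such probes. In control cells 6 of the 22 had probes of both signs and 1, Exosc8, had passing probes of both signs. Its second probe (A_51_P500806), well above background on 10 of 12 arrays, read -4.89, -4.39 and -4.91 before and -3.24, -3.13 and -3.17 after 4-OHT in control cells, and -4.57, -4.61 and -4.29 and -3.12, -2.91 and -3.01 in shRNA cells. That is a rise of 1.55 (SE 0.14, adjusted p = 8.45e-06) and 1.48 (SE 0.14, adjusted p = 1.39e-05), the largest of any probe of the set, while the probe used for Exosc8 fell in control cells. The rising probe was designed on a cDNA clone and the falling one on the RefSeq transcript; which exons they cover was not tested. Nol12 had probes of opposite sign too: its second probe fell, with -0.39 (SE 0.079, adjusted p = 0.00269) and -0.24 (SE 0.079, adjusted p = 0.036), beside 0.15 and 0.061 for the brighter one.

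The second Exosc3 probe, which the array design places on the opposite strand to the first, fell in both vectors, with -0.88 (SE 0.27, adjusted p = 0.0258) and -0.80 (SE 0.27, adjusted p = 0.0406). The second Polr3e probe rose by 0.32 (SE 0.11, adjusted p = 0.0432) and 0.59 (SE 0.11, adjusted p = 0.00191). Both other Polr3g probes had the sign of the first, with -0.34 and -0.20 in control cells (adjusted p = 0.0785 and 0.0904). These probes were singled out after their values were seen.

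**Figure D3:**
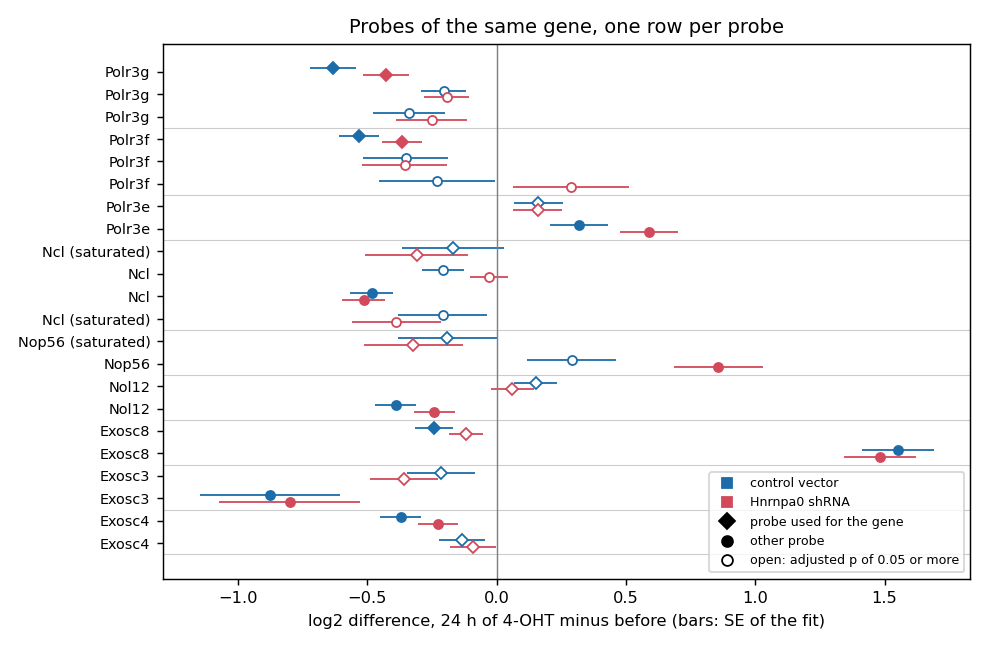
Log2 difference between 24 h of 4-OHT and before (horizontal axis) for each tested probe of 9 genes, 1 row per probe, in control (blue) and shRNA (red) cells; bars are the SE, diamonds mark the probe used for the gene, and filled points have an adjusted p under 0.05. The 2 Exosc8 probes lie on opposite sides of 0, and the 3 Polr3g probes all lie below it in both vectors.

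Genes of the same families under older names were described in the same way. Of 23 tested, 8 passed in control cells (2 higher, 6 lower; 34.8%, beside 40.5% of all genes) and 5 in shRNA cells (2 higher, 3 lower; 21.7%, beside 38.3%). Those that rose were processome genes: Utp25 in both vectors, with 0.40 (SE 0.079, adjusted p = 0.00201) and 0.38 (SE 0.079, adjusted p = 0.0032), Rrp36 in control cells (0.21, adjusted p = 0.00591) and Nop14 in shRNA cells (0.22, adjusted p = 0.0407). Utp4, also of the processome, fell in control cells (-0.30, adjusted p = 0.0171). Of the large subunit genes, Nop53 fell in control cells (-0.35, adjusted p = 0.0155) and Rrp1 in shRNA cells (-0.24, adjusted p = 0.0194). Rrp1b fell in both vectors (-0.27 and -0.27, adjusted p = 0.013 and 0.0145), while Nop16 and Rrp15 passed in neither. Nol4l, which was given none of these roles, fell in both vectors (-0.34 and -0.42, adjusted p = 0.00305 and 0.000939). Utp25 and the other genes named up to here under older names were chosen after their values were seen. Polr1a, the largest catalytic subunit of polymerase I, read 3.37, 3.23 and 3.32 before and 3.22, 3.11 and 2.98 after 4-OHT in control cells, and 3.15 ± 0.031 and 3.02 ± 0.017 (mean ± SD, n = 3) in shRNA cells. Its groups did not overlap in either vector. Its difference of -0.20 (SE 0.071, adjusted p = 0.0439) in control cells was just past the threshold and passed in 6 of 27 alternatives; it was lost without control before A and C, control 4-OHT B and C, shRNA before A, B and C and shRNA 4-OHT A, B and C (-0.20 to -0.14, adjusted p up to 0.152). The second largest subunit, Polr1b, gave -0.38 (SE 0.15, adjusted p = 0.0699) in control cells, where control 4-OHT A read 0.11 against 0.61 and 0.64 on the other arrays. Dkc1, the pseudouridine synthase of box H/ACA particles, fell in control cells from 0.67, 0.66 and 0.65 to 0.32, 0.46 and 0.28, by 0.30 (SE 0.094, adjusted p = 0.0242), a call lost without control before A, B and C and control 4-OHT A and C (-0.31 to -0.27, adjusted p up to 0.0796). In shRNA cells Dkc1 gave -0.22 (adjusted p = 0.0913).

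Of 131 further genes of ribosome production, polymerase I and III transcription and their regulators, 121 were tested. In control cells 35 passed (11 higher, 24 lower) and in shRNA cells 27 (14 higher, 13 lower), shares of 28.9% and 22.3% beside the 40.5% and 38.3% of all genes. By group, 5 of 26 small subunit genes passed in control cells (2 higher, 3 lower), 10 of 42 large subunit genes (2 higher, 8 lower), 5 of 16 polymerase III factors (4 higher, 1 lower) and 1 of 7 polymerase I factors. Of the 9 snoRNP partners 3 passed, of 15 exosome cofactors and RNase MRP genes 6, and of 6 Myc network regulators 5 (1 higher, 4 lower).

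A few of these genes differed more than any of the 45. Heatr1, a processome component that also supports polymerase I transcription, stood at 2.27, 2.23 and 2.36 before and 4.08, 4.05 and 4.19 after 4-OHT in control cells, and at 2.29, 2.40 and 2.69 and 4.22, 4.24 and 4.38 in shRNA cells. All 6 arrays after the drug were above all 6 before it, by 1.82 (SE 0.10, adjusted p = 1.89e-07) and 1.82 (SE 0.10, adjusted p = 2.3e-07), and its 3 probes all rose. Pop4, a subunit of RNase MRP and RNase P, rose by 1.31 (SE 0.062, adjusted p = 1.78e-07) and 1.25 (SE 0.055, adjusted p = 1.45e-07). Snapc5, part of the complex that starts polymerase III transcription at small nuclear RNA genes, rose by 0.88 and 0.60 (adjusted p = 1.67e-05 and 0.000316).

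Myc fell, as did its antagonists Mxd1 and Mxi1. Of the 6 Myc network regulators tested, 4 fell in control cells and 3 in shRNA cells, and those outside the naming rule are not named. Myc stood at 4.75, 4.77 and 4.75 before and 4.28, 4.31 and 4.17 after 4-OHT in control cells and at 4.73, 4.74 and 4.12 and 4.04, 3.99 and 3.61 in shRNA cells, where shRNA before C lay nearest to the arrays after the drug. The groups did not overlap in either vector, and the difference was -0.50 (SE 0.16, adjusted p = 0.0317) and -0.65 (SE 0.16, adjusted p = 0.00971); the control call was lost without control before A, B and C and control 4-OHT A, B and C (-0.53 to -0.46, adjusted p up to 0.0904). Mxd1 and Mxi1, which compete with Myc for its partner Max, fell, with differences of -1.54 and -1.02 in control cells and -1.44 and -0.91 in shRNA cells, and Mxd3 rose by 0.89 and 0.61; these 6 differences passed in every alternative run. Rrn3, which brings polymerase I to its promoter, fell in control cells by 0.37 (SE 0.10, adjusted p = 0.0134), a call lost without control before C and control 4-OHT C (-0.31 to -0.28, adjusted p up to 0.057), while its second probe gave 0.10. Ubtf, the factor that binds ribosomal DNA, gave 0.058 (-0.15 to 0.26) and -0.021 (-0.20 to 0.16), and Maf1, the repressor of polymerase III, -0.14 (-0.29 to 0.013) and -0.14 (-0.29 to 0.013).

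**Figure D4:**
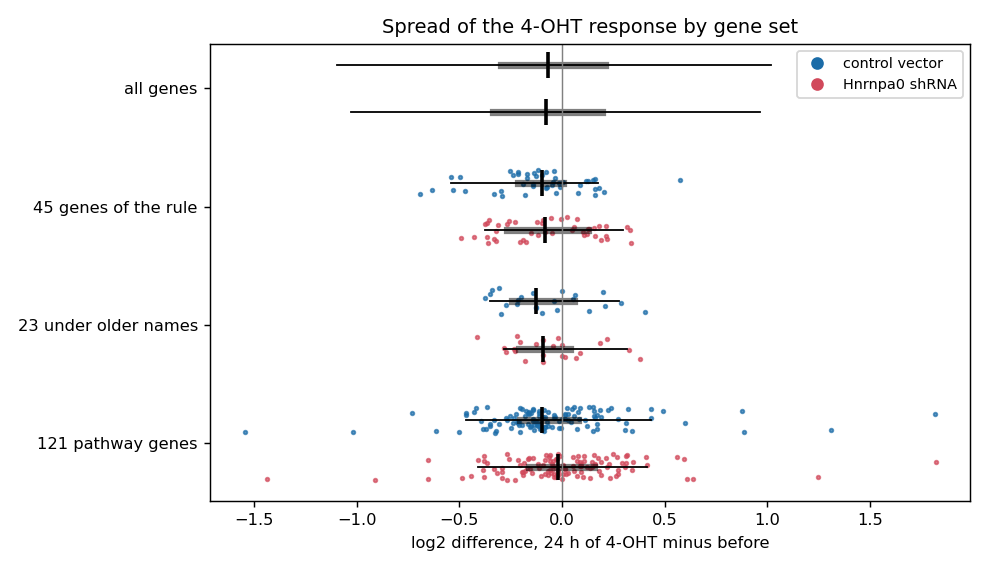
Log2 difference between 24 h of 4-OHT and before (horizontal axis) for all genes, the 45 genes of the rule, 23 family genes under older names and 121 further pathway genes, in control (blue) and shRNA (red) cells; points are genes, thick bars run from the 25th to the 75th percentile, thin lines run from the 5th to the 95th percentile, and ticks mark medians. The medians of the 45 genes, -0.099 and -0.084, lie beside those of all genes, -0.068 and -0.076.

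The responses of the 45 genes were set side by side; the comparisons share no array. Of the 45, 38 had the same sign in both vectors, and 6 passed in both: Polr3g, Polr3gl, Polr3f and Imp3 lower, and Polr3k and Nol3 higher. With the clone as a block, 3 of these 6 (Polr3g, Polr3f and Imp3) passed in both. Across the 45 genes the responses correlated with Pearson's r = 0.835 and Spearman's rho = 0.891, and across all 15062 genes with 0.934 and 0.827; genes are not independent replicates and each vector's arrays share slides. No gene of the set passed the test of the difference between the responses (0.0% of all genes did, by limma). At an unadjusted p under 0.05 that count was 0 of the 45 and 790 of all genes. The differences ran from -0.26 for Nol3 to 0.37 for Utp14b.

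Before 4-OHT 0 of 45 genes passed the test between vectors (limma, where 0.378% of all genes passed), and 11 of 45 had an unadjusted p under 0.05, where 22.3% of all genes did. The shRNA minus control differences lay between -0.43 for Utp18 and 0.35 for Nol9. Without control 4-OHT A, which is in neither group but enters the shared spread, Nol7 and Utp18 passed, both lower in shRNA cells. The smallest adjusted p in the full fit were those of Nol3 (-0.35, 0.107), Utp18 (0.107) and Nol7 (-0.39, 0.11).

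After 4-OHT 8 of 45 genes (17.8%) differed between vectors, 5 higher and 3 lower in shRNA cells, where 16.7% of all genes passed (7.85% higher, 8.82% lower). Higher were Nol9 and Nol8 of the large subunit, Utp14a and Imp4 of the small, and Polr3a; lower were Nol3, Exosc3 and Utp18. Nol9, a kinase that acts on ribosomal RNA ends, read -0.25, -0.15 and -0.12 in control and 0.41, 0.43 and 0.67 in shRNA cells after 4-OHT, a difference of 0.68 (SE 0.13, adjusted p = 0.0156). Nol3 read -0.85, -0.81 and -1.19 against -1.55, -1.54 and -1.60, a difference of -0.61 (SE 0.10, adjusted p = 0.0123). Neither gene's groups overlapped, and both had differences of the same sign before 4-OHT (0.35 and -0.35).

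Utp14a, a processome component, read -1.33, -1.32 and -1.13 in control and -0.72, -0.90 and -0.82 in shRNA cells, 0.44 (SE 0.12, adjusted p = 0.0347). Polr3a read 0.41, 0.49 and 0.70 against 0.74, 1.03 and 1.01, 0.40 (SE 0.10, adjusted p = 0.0298). For Imp4 the values were -2.72, -2.46 and -2.49 against -2.27, -2.24 and -2.06, 0.36 (SE 0.10, adjusted p = 0.0407). In each of the 3 genes all shRNA arrays lay above all control arrays. Nol8 was higher by 0.33 (SE 0.089, adjusted p = 0.0332), from 1.56, 1.40 and 1.53 to 1.83, 1.77 and 1.89. Exosc3, a cap subunit of the exosome, was lower, with -0.47 (SE 0.13, adjusted p = 0.0376), at 3.27, 3.18 and 2.93 against 3.83, 3.55 and 3.42. Utp18 was lower, with -0.42 (SE 0.13, adjusted p = 0.0465), at 1.18, 1.18 and 1.06 against 1.87, 1.46 and 1.35, with control 4-OHT A the highest array of both genes. In each of these 3 genes too the groups did not overlap.

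None of the 8 calls stood once slide entered the fit. With slide as a fixed term 0 of 45 genes passed (0.00664% of all genes), and with slide as a random block 0 of 45 (0.0% of all genes); at a fixed slide term the difference of Nol9 was 0.19 (adjusted p = 0.877), that of Nol3 -0.41 (adjusted p = 0.814), that of Utp14a 0.0047 (adjusted p = 0.996) and that of Exosc3 -0.037 (adjusted p = 0.987). Slide and vector cannot be told apart within a treatment, since the control arrays after 4-OHT lay on slides 1 and 2 and the shRNA arrays on slide 3. Hnrnpa0 also lost its call with the fixed term, at -1.38 (adjusted p = 0.0897). With 1 array left out the count was 1 without control 4-OHT B or shRNA 4-OHT C, 2 without shRNA 4-OHT B, 3 without control 4-OHT A, 4 without shRNA 4-OHT A or control before C, and 5 without shRNA before B. By gene, calls were lost as follows: Nol9 without control 4-OHT B and shRNA 4-OHT C (0.59 to 0.69), Polr3a without control 4-OHT A and B and shRNA 4-OHT B and C (0.34 to 0.37), Utp14a without control 4-OHT A and B, shRNA before B and shRNA 4-OHT A, B and C (0.40 to 0.48), Imp4 without control before C, control 4-OHT A, B and C and shRNA 4-OHT A, B and C (0.28 to 0.42), Nol8 without control before C, control 4-OHT A, B and C and shRNA 4-OHT A, B and C (0.29 to 0.37), Exosc3 without control before B and C, control 4-OHT A and B, shRNA before B and shRNA 4-OHT B and C (-0.50 to -0.36) and Utp18 without control before A, B and C, control 4-OHT A and B, shRNA before A and B and shRNA 4-OHT A, B and C (-0.47 to -0.26). The call of Nol3 stood without each of the 12 arrays in turn. Second probes gave -0.0061 for Nol8, 0.33 for Utp14a and 0.0049 for Polr3a, none of which passed when probes were tested one by one (16.9% of all probes did).

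**Figure D5:**
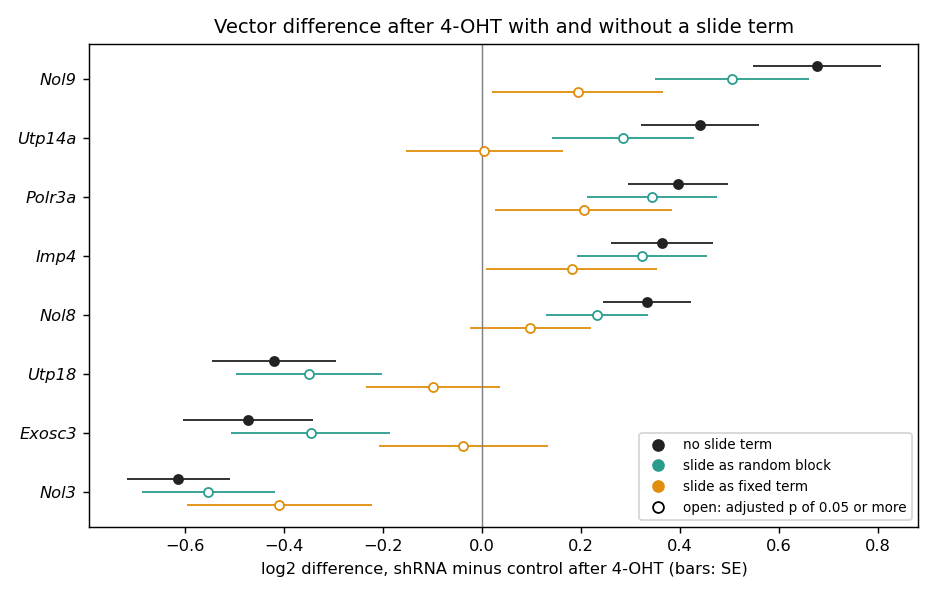
Log2 difference between shRNA and control cells after 4-OHT (horizontal axis) for the 8 genes that passed, fitted with no slide term (black), with slide as a random block (green) and with slide as a fixed term (orange); bars are the SE and open points have an adjusted p of 0.05 or more. Every estimate moves toward 0 when slide enters, and all points with a slide term are open.

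Among genes of the families under older names, Polr1b was higher in shRNA cells after 4-OHT by 0.63 (SE 0.15, adjusted p = 0.024), a call lost with the fixed slide term, at 0.10 (adjusted p = 0.926), and without control 4-OHT A and B and shRNA 4-OHT B and C (0.46 to 0.71, adjusted p up to 0.0781). In all 3 of 23 of those genes passed (13.0%, beside 16.7% of all genes), 2 higher and 1 lower. The lower gene was Polr1d, a subunit shared by polymerases I and III, with -0.71 (SE 0.14, adjusted p = 0.0169). Before 4-OHT Polr1d gave -0.64 (adjusted p = 0.0725) and did not pass. The other higher gene was Nop53 (0.43, adjusted p = 0.0218). Polr1d and Nop53 were named after their values were seen. Of the 121 further pathway genes 27 passed, 23 higher and 4 lower in shRNA cells (22.3%, beside 16.7% of all genes), among them 7 of 26 small subunit and 8 of 42 large subunit genes that were higher. None of these calls stood with slide as a random block, where 0.0% of all genes passed, and with slide as a fixed term 0.00664% of all genes did. Progenitor and macrophage markers moved in the same comparison: 2 of 6 progenitor markers were higher and 3 of 7 macrophage markers lower in shRNA cells, and 5 of 14 proliferation markers were higher and 1 lower. Their part in the result was not tested.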

How the data were processed

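RNA from 12 PUER cultures was hybridised to one-colour arrays. Per the file headers, the authors scanned design 014868 and read it with Agilent Feature Extraction 9.5.3.1 (9.5 in the submitters' processing notes). The deposited values are linear background-subtracted intensity per spot, without scaling between arrays; the deposited value table holds the same intensity within 0.497%. Probe positions in the files are on build mm7.

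From these, each array's 75th percentile (1196 to 2583) was subtracted on the log2 scale. Outlier and control spots were left out. A gene was tested on its brightest probe well above background on at least 3 arrays, with at least 2 values per group. limma 3.58.1 in R 4.3.3 fitted 4 group means over the 12 arrays and gave 5 contrasts, and p-values were adjusted over 15062 genes (Benjamini-Hochberg, threshold 0.05); probes were also tested one by one over 22364. SE is that of the fit. Probes were named through transcripts (23082), symbols (6582) or older symbols (3073); 8437 kept the name in the files. If replicates are not separate cultures, p-values measure technical spread. Start regions came from RefSeq (GRCm38.p6), matched by symbol.

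Named genes followed a rule: up to 8 rises and 8 falls per 4-OHT contrast without overlap, up to 10 calls between vectors, core genes, and 6 pathway genes. Family genes under older names outside the core were named after their values were seen. Members, lists and tests were chosen with earlier results of these data known. Simulated data checked the fit. Alternatives were other background correction, scaling, filters, probe averaging, the deposited value table, slide and replicate blocks, 2 groups, and each array left out. Figures used Python 3.11.15 and matplotlib 3.10.9. The values of 1 polymerase III gene are not reported here, though it is in the counts.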

Additional observations from a re-analysis of the deposited data

How the results depend on the processing

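Counts within slide 1 or slide 3 are not given, since each slide held 1 array on a side of its comparison. The count of genes of the set passing in control cells with 4-OHT (9) lay between 6 and 17 with 1 array left out. Alternatives other than these kept it within 1.5 times. In shRNA cells the count (8) was 3 with normexp background correction and 3 with the 75th percentile taken without outlier spots. That count was 4 with no background filter, 4 with slide as a fixed term, and 4 to 14 with 1 array left out. Between vectors before 4-OHT it stayed at 0 except for 2 without control 4-OHT A (range 0 to 2). After 4-OHT the count (8) was 5 with normexp, 4 with median scaling, 2 with the percentile without outlier spots, 13 with probes above background on every array, 2 with no filter, 3 with probes averaged, 0 with slide fixed or random, 4 with 2 groups only, and 1 to 10 with 1 array left out. The count for the difference between responses was 0 throughout. With unsaturated probes only, 2 genes that had not passed turned and passed: Nop56 in shRNA cells to 0.86 and Ncl between vectors after 4-OHT to 0.30. With no background filter the median of all genes in control cells with 4-OHT moved to -0.21, from -0.068. The percentile without outlier spots, the slides taken alone and the unsaturated probes were chosen after seeing the data. Replicate letters were not used to pair the arrays in the main fit. Deviations of same-letter arrays correlated between -0.0872 and 0.304, over 0.1 in 6 of 18 pairs. Before against after 4-OHT, replicates A, B and C gave 0.259, 0.055 and 0.198 in control cells and 0.0642, -0.0357 and 0.149 in shRNA cells. Arrays of different letters were not set beside these, so whether letters pair the arrays was not tested. The replicate block by letter gave 8, 11 and 10 genes in the control, shRNA and vector comparisons after 4-OHT, and the replicate block by clone gave 7 and 7 in control and shRNA cells, of which 6 and 4 were among the 9 and 8; Polr3gl and Polr3k did not pass with it in either vector, nor did Nol3 and Utp6 in shRNA cells or Exosc8 in control cells.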
